A study of Mus musculus with 120 samples.

Results

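The proteasome genes were followed through 120 libraries of mouse bone-marrow-derived macrophages (macrophages grown from bone marrow in culture). By the design of the series, treated cells were given halofuginone before LPS, and controls were given no halofuginone. Members were the rows of the deposited count table whose symbol begins with Psma, Psmb, Psmc, Psmd or Psme and ends in a number, which gave 43 of 23481 symbols. Of these, 5 formed the immunoproteasome set (Psmb8, Psmb9, Psmb10, Psme1 and Psme2), and the other 38 are called the constitutive set. The rule used the names of the genes and none of their values.

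The proteasome degrades proteins that carry ubiquitin. Its barrel, the 20S core, stacks rings of alpha subunits (Psma genes), which gate the entry, around rings of beta subunits (Psmb genes), of which Psmb5, Psmb6 and Psmb7 encode those that cut peptides. The 19S cap binds, unfolds and feeds the substrate through ATPases (Psmc genes) and non-ATPase subunits (most Psmd genes). Under interferons, immune cells make Psmb8, Psmb9 and Psmb10, which replace Psmb5, Psmb6 and Psmb7 in newly built cores, and Psme1 and Psme2, which form the PA28 activator ring. Such immunoproteasomes cut peptides that suit MHC class I molecules, and macrophages exposed to LPS are a classical setting for their induction.

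The cells came from wild-type male C57BL/6 mice aged 12 weeks, were grown in CMG medium, and carried a virus with a transcription factor reporter, in controls as in treated cells. Halofuginone occupies, in competition with proline, the active site of prolyl-tRNA synthetase, which is part of the protein Eprs. Each of the labelled times 0, 1 and 4 (T0, T1 and T4, no unit given) had 12 controls and 14 treated groups of 2 libraries, since halofuginone was given at 7 doses (2.4 to 10000 nM), each of them with and without 2 mM proline. No label says which libraries received LPS, how long cells met halofuginone before T0 or whether controls held proline, so the controls at T4 against T0 are read as the LPS course, from which time in culture cannot be told apart. Nothing in the labels says that libraries of a group came from separate cultures or animals, so p-values measure the spread between these libraries, which may be technical.

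Libraries held 20000 to 114061 counts (median 49515). Rn45s, the ribosomal RNA precursor, took 27.0% to 71.1% of them, so levels are given per 10000 counts outside Rn45s. Rn45s moved with treatment: at T4 it took 27.0% to 42.75% in controls, 61.55% to 67.6% at 625 to 10000 nM and 62.3% to 71.1% with proline. Members held 21 to 495 counts per library (median 124.5), so a single gene often rested on fewer than 10 counts. Of 9 macrophage markers, 8 had a row, and their summed level at T4 was 17.3 to 26.0 in controls, 13.9 to 25.03 at high doses and 12.1 to 30.8 at high doses with proline. The 7 rows of neutrophil markers, of which Elane was at 0, summed at T4 to 1.92 to 7.73 in controls, 0 to 2.03 at high doses and 1.31 to 2.92 with proline. Their part, and that of Rn45s, in the changes under halofuginone was not tested. B cell markers gave 4 counts in all libraries, with Cd79a and Ms4a1 at 0, and mast cell markers gave none.

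Over the 120 libraries the members summed to 16639 counts, 12952 of them constitutive. Psme2, a PA28 subunit, held the most (1518 counts), followed by the alpha subunit Psma4 (951), the 19S scaffold subunit Psmd1 (901) and the 19S lid subunit Psmd8 (891). At the other end Psma8, the alpha subunit of germ cells, held 2 counts in 1 library, and Psmb11, the beta subunit of the thymus, held 72. Counts come from the 3′ ends of transcripts, so these totals rank the genes in these libraries and are not corrected for length.

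The 5 immunoproteasome genes made up a larger part of the proteasome RNA at T4 in controls. Their summed level ran from 4.35 through a median of 7.55 to 10.4 at T0, from 4.56 through 7.005 to 9.67 at T1, and from 19.8 through 24.4 to 34.7 at T4 (12 libraries each). The lowest library at T4 lay above the highest at either earlier time. The ratio of the mean levels was 3.43 for T4 over T0 and 0.979 for T1 over T0. In the same libraries the 38 constitutive genes summed to 49.2 ± 5.31 (SD, n = 12) at T0, 40.8 ± 2.84 at T1 and 43.4 ± 3.27 at T4, a ratio of 0.882 for T4 over T0 that became 1.05 when all counts were the denominator. The immunoproteasome share of proteasome counts was 12.9% ± 3.44 at T0, 14.8% ± 3.04 at T1 and 36.3% ± 3.49 at T4, with ranges at T4 and T0 that did not overlap. In bulk samples fewer cells of a type and less RNA per cell cannot be told apart.

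**Figure D1:**
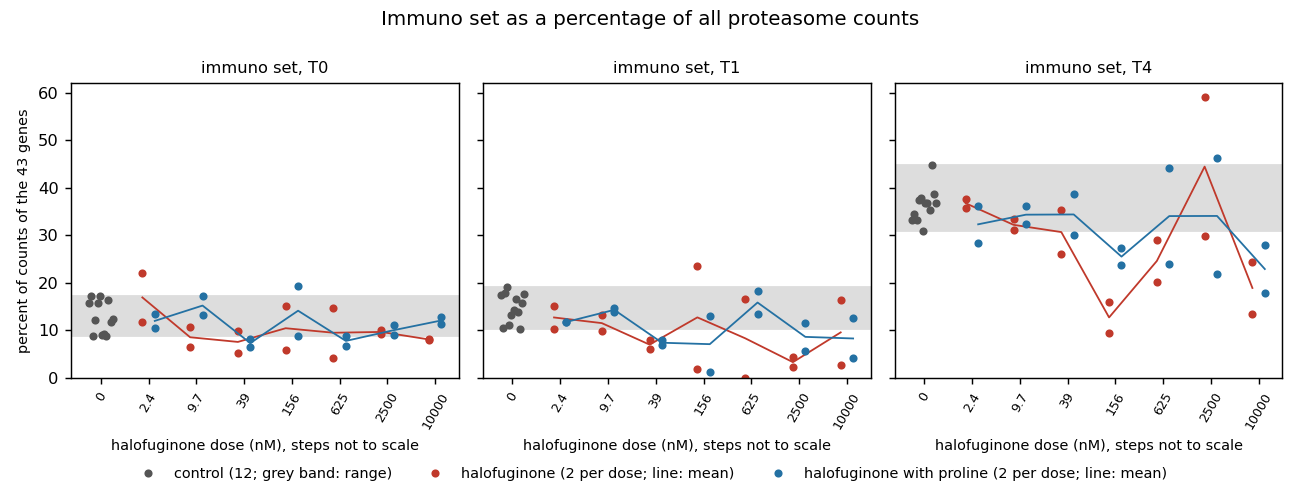
Immunoproteasome genes as a percentage of all proteasome counts (vertical axis) by time and dose (nM), with 1 point per library. Control libraries sit between 8.73% and 17.2% at T0 and between 30.8% and 44.7% at T4.

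Psme2 had the highest level of the set. It ran from 1.21 (median 2.67) to 3.94 at T0 and from 6.58 (median 11.4) to 13.4 at T4, without overlap. Its log2 change was 2.05 (SE 0.19, adjusted p = 7.62e-16 by edgeR's quasi-likelihood test), and 12 of 12 libraries lay above the mean at T0. Psmb8, the immune counterpart of Psmb5, went from 0.362 to 2.69 (median 1.71) to 3.29 to 7.66 (median 4.23), again without overlap, a log2 change of 1.64 (SE 0.27, adjusted p = 1.86e-07). Psme1, the partner of Psme2 in PA28, overlapped between 0.362 to 3.66 (median 1.65) at T0 and 2.12 to 11.8 (median 3.65) at T4, and rose by a log2 change of 1.37 (SE 0.29, adjusted p = 3.48e-05).

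Psmb10, the counterpart of Psmb7, did not pass the filter on low counts, which was applied over the controls of all times. It had 28 counts at T0 and 246 at T4, with levels of 0 to 2.30 (median 0.63) against 2.87 to 8.59 (median 4.15), which did not overlap. Without the filter its log2 change was 2.83 (SE 0.31, adjusted p = 2.27e-18). Psmb9, the counterpart of Psmb6, stayed low, with 11 counts at T0 and 34 at T4 and levels of 0 to 0.799 against 0.178 to 1.59. Those ranges overlapped, and its change without the filter was 1.22 (SE 0.58, adjusted p = 0.135). Psmb9 shares exon sequence with Tap1 on the opposite strand and Psme1 shares its 3′ end with Emc9, and the strand setting of the counting is not given in the sources used here, so reads of these pairs could not be separated.

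The start regions of the 5 immunoproteasome genes are shown with that of Psmb6, the subunit that Psmb9 replaces, which without the filter had a log2 change of 0.66 from T0 to T4 in controls (SE 0.29, adjusted p = 0.0956). Sequences are from RefSeq on GRCm38.p6, 5′ to 3′ on the gene's strand, with the matched motif in capitals. Positions given after the gene are those of the whole stretch shown. Psmb8 (gene at chr17:34197721-34201454, plus strand) holds a match to the gamma-activated site TTCNNNGAA within chr17:34198087-34198116. Psme1 (gene at chr14:55578123-55581529, plus strand) holds the interferon-stimulated response element within chr14:55578493-55578522. Psmb6 (gene at chr11:70525367-70527858, plus strand) holds the antioxidant response element TGACNNNGC within chr11:70525337-70525366. For Psmb9 (gene at chr17:34181987-34187764, minus strand) the capitals mark a GC box, GGGCGG, within chr17:34187368-34187397.
Psmb8: gtcctccgctgTTCCCAGAAgatgcccccc
Psme1: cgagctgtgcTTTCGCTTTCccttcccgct
Psmb9: tgcgcgatgatgGGGCGGggcctcagtctg
Psmb6: actaaagagagTGACGGAGCgctttacgac

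The windows of Psme2 (gene at chr14:55587441-55591113) and Psmb10 (gene at chr8:105935735-105938444), both on the minus strand, held no match to either interferon motif. In the 120 bases shown, at chr14:55591114-55591233 and chr8:105938445-105938564, Psme2 has a GC box on the opposite strand (capitals) and Psmb10 has no match to any motif searched.
Psme2: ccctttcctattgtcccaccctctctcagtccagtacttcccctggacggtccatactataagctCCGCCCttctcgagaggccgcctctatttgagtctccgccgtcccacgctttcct
Psmb10: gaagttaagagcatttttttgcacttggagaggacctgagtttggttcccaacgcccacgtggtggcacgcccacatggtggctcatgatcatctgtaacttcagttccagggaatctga

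Windows of 250 bases before to 50 after a start were available for 36 of the 43 members (39 windows) and were searched on both strands, with overlapping matches allowed. The interferon element was in 4 member windows (Psmb3, Psmd4, Psmd9 and Psme1) and in 3.44% of all 32851 windows, and the gamma-activated site in 2 (Psmb8 and Psmd2) and in 8.30%. The antioxidant element was in 6 (Psmb5, Psmb6, Psmc6, Psmd12, Psmd9 and Psme4) and in 12.4%, and an NF-kB motif in that of Psme4 alone and in 1.47%. CCAAT was in 14 and in 37.4%, the GC box in 23 and in 35.7%, the C/EBP-ATF motif TGATGCAA in that of Psmd13 and in 0.895%, and the cAMP response element TGACGTCA in none and in 1.79%. A match describes letters and is not evidence that a factor binds there.

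**Figure D2:**
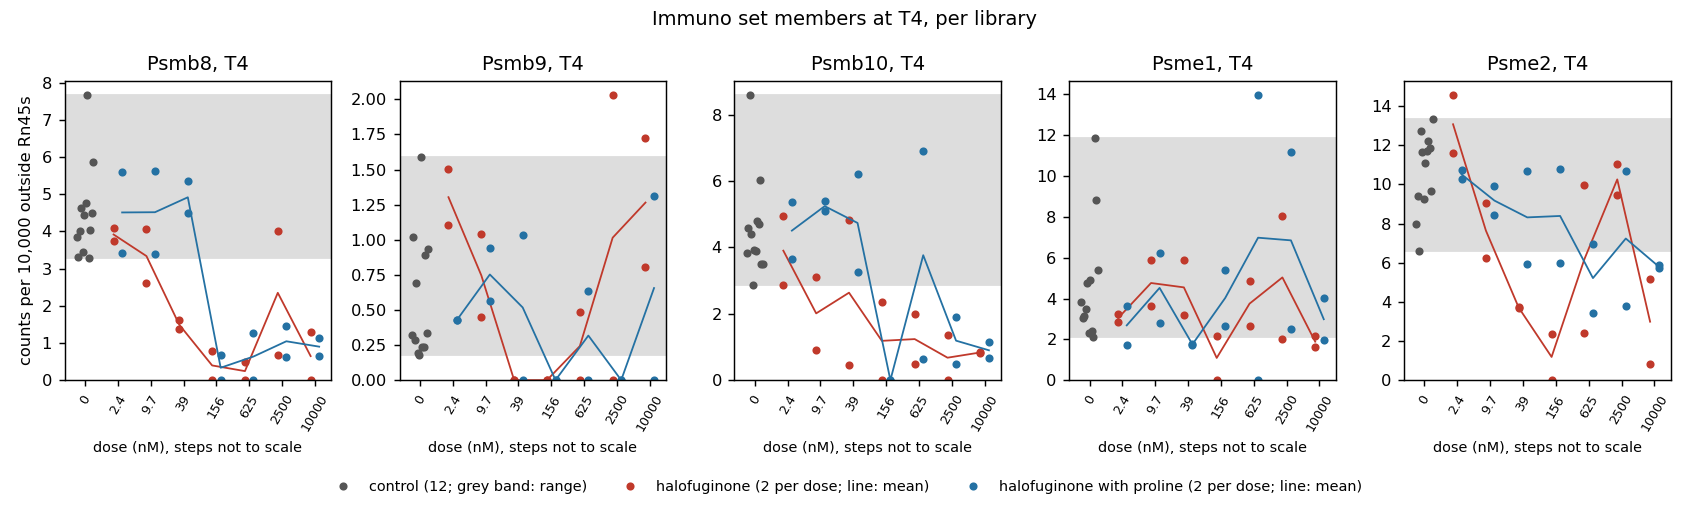
Levels of the 5 immunoproteasome genes at T4 (counts per 10000 outside Rn45s, vertical axes) against the dose in nM, with 1 point per library and controls at the left. Psme2 reaches 13.4 in controls, while Psmb9 stays at or under 2.03 in every library plotted at T4.

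Of the 6 members that passed the filter in the control comparison, 4 passed the test at T4, in which 76.3% of the 708 genes tested did: Psme2, Psmb8 and Psme1 rose (background for higher 36.6%) and Psmd1 fell (background for lower 39.7%). A member counted mainly at 1 time can pass the filter through that time, so these directions describe only the members tested. Psmd1 ran from 2.00 (median 4.248) to 7.94 at T0 and from 0.573 (median 1.42) to 3.24 at T4, a log2 change of -1.38 (SE 0.25, adjusted p = 1.33e-06) with 12 of 12 libraries under the mean at T0. Psma4 (0.21, adjusted p = 0.388) and Psma7 (-0.10, adjusted p = 0.706) were not called. In the 24 fits that left out 1 control each, Psme2, Psmb8 and Psmd1 kept their calls, and Psme1 passed the filter in 17 and was called in each of those. With no filter, 8 of 43 members were called, against 17.7% of 12496 genes, and the constitutive alpha subunits among them rose too: Psma6 by 2.01 (SE 0.31, adjusted p = 2.50e-09), Psma3 by 1.159 (adjusted p = 0.00247) and Psma2 by 1.04 (adjusted p = 0.0223). Psma6 went from 0.282 to 2.21 (median 1.07) to 1.15 to 5.10 (median 3.41), with overlap.

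At T1, 0 of the 6 members passed edgeR's test, against 26.4% of the 708 genes. None had an unadjusted p under 0.05, and DESeq2 called 0. Psme2 stood at 0.444 to 5.05 (median 1.618) and Psmb8 at 0 to 2.40 (median 1.14), overlapping their levels at T0.

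Genes around the proteasome were read from lists of antigen processing, ubiquitin, and assembly and cap partners. At T4 in controls, of 8 antigen processing genes tested 4 rose and 2 fell, near the shares of all genes that did (36.6% and 39.7%). Among them the transcription factor Irf8 (log2 change 1.97), the peptide loading chaperone Tapbp (1.67) and the MHC class I light chain B2m (0.30) rose, while the lectin chaperones Calr (-0.65) and Canx (-0.88) fell. Among 6 ubiquitin genes tested, Usp18, which removes ISG15 from proteins, rose by 4.74 and the conjugating enzyme Ube2d3 by 0.53, while the ubiquitin genes Ubb (-0.80) and Rps27a (-0.41) fell. Of 3 partners tested among 22 with a row, Shfm1, a small cap subunit, fell by 0.56 and the transcription factor Nfe2l2 by 0.70, and Vcp was not called.

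Under halofuginone most libraries from 39 nM on lay under the controls in the immunoproteasome sum at T4. Its summed level was 25.2 and 25.3 in the libraries at 2.4 nM, 16.6 and 20.4 at 9.7 nM, 8.70 and 16.1 at 39 nM and 2.18 and 5.53 at 156 nM. Above that dose the order broke: 625 nM gave 8.72 and 14.6, 2500 nM gave 15.6 and 23.1, and 10000 nM gave 4.04 and 11.2. Only the libraries at 2.4 nM, 1 of the 2 at 9.7 nM and 1 of the 2 at 2500 nM lay within the control range of 19.8 to 34.7.

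With proline the sums at 39 and 156 nM were higher than without it. The set stood at 19.5 and 25.8 at 2.4 nM, 23.2 and 25.2 at 9.7 nM, 16.3 and 24.2 at 39 nM and 9.31 and 16.2 at 156 nM. At 625 nM it was 10.4 and 23.5, at 2500 nM 8.83 and 23.8, and at 10000 nM 10.5 and 12.0. The pair at 39 nM and the pair at 156 nM each lay wholly above the pair without proline, whereas the pairs at 625, 2500 and 10000 nM overlapped those without it. These sums were not tested.

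**Figure D3:**
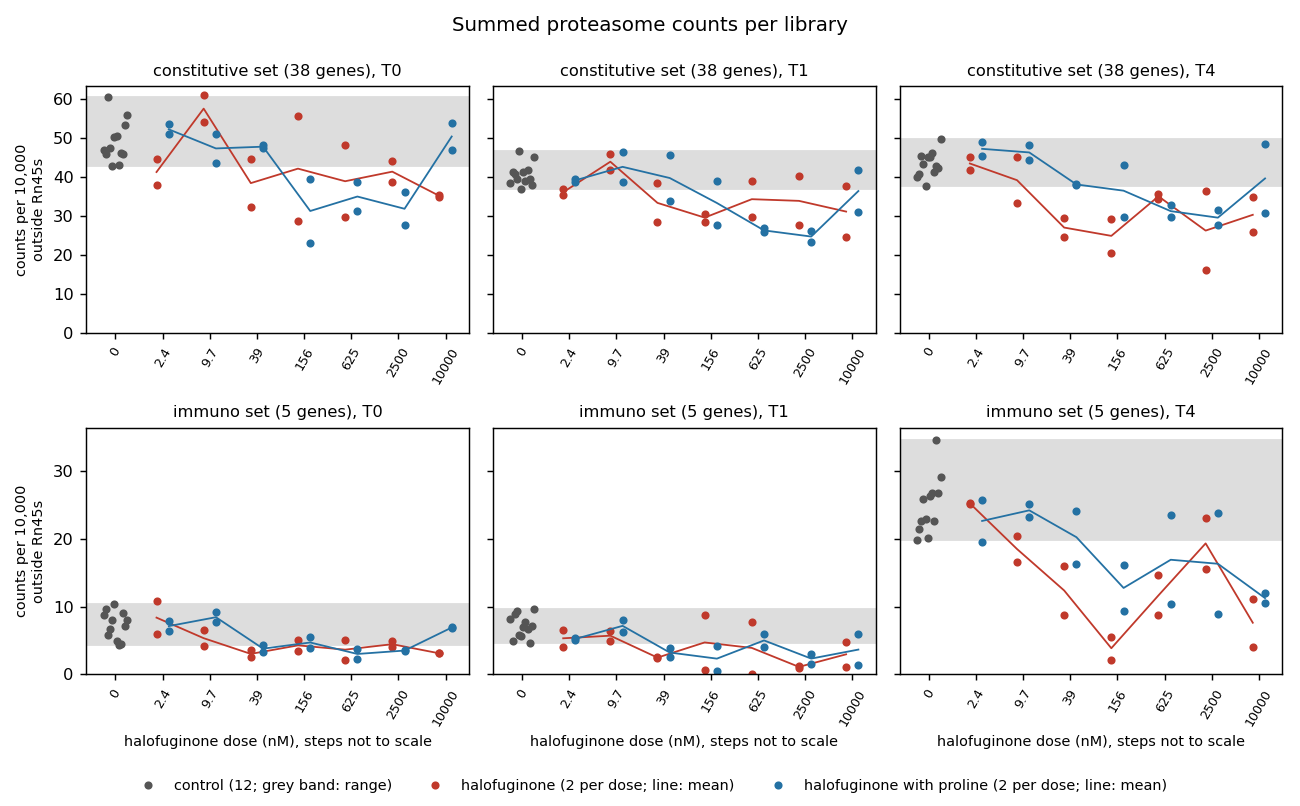
Summed level of the constitutive (38 genes) and immunoproteasome (5 genes) sets per 10000 counts outside Rn45s (vertical axes) by dose in nM at each time, with 1 point per library. At T4 the immunoproteasome sum falls from 25.2 and 25.3 at 2.4 nM to 2.18 and 5.53 at 156 nM of halofuginone alone.

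The highest doses, 625, 2500 and 10000 nM, were compared as a group (6 libraries) with the 12 controls of the same time. At T4 the constitutive sum ran from 16.1 (median 34.6) to 36.5 under halofuginone, all under the lowest control (37.7), and from 27.7 (median 31.2) to 48.5 with proline, where 1 library reached into the control range. The ratios of the mean levels were 0.705 and 0.773 for the constitutive set and 0.517 and 0.595 for the immunoproteasome set. The means by class of constitutive subunits at T4 are given with no test between classes. The alpha ring averaged 15.7 in controls, 8.55 at high doses and 6.50 with proline, and the beta ring 9.45, 6.44 and 3.91. The 19S ATPases averaged 3.93, 3.45 and 5.04, and the 19S non-ATPases, here all 14 Psmd genes, 12.9, 10.6 and 15.8. The order of the ATPase means rested on single libraries: with proline replicate 1 at 2500 nM stood at 11.99 and the others at or under 5.72, and the mean without it was 3.65, while without replicate 1 at 625 nM the mean under halofuginone alone was 4.01. The constitutive ratios at T4 without and with proline became 0.406 and 0.434 with all counts as the denominator, as Rn45s took more of each treated library.

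Of the 16 members tested under the high doses at T4, 10 were called against 54.6% of the 1315 genes tested, 9 of them lower (background 35.5%) and 1 higher (background 19.1%). A member that is counted mainly in controls passes the filter through them, so these counts lean to lower values and describe only the members tested. The median log2 change was -1.41 over those 16 and -0.23 over all genes.

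Psmb8 stood at 3.29 to 7.66 in controls and at 0 to 4.02 (median 0.58) at high doses, where 1 library at 2500 nM reached the control range. Its log2 change was -2.44 (SE 0.49, adjusted p = 1.75e-05), with 6 of 6 libraries under the control mean. Psmb10 fell from 2.87 to 8.59 in controls to 0 to 1.99 (median 0.834), without overlap, by a log2 change of -2.25 (SE 0.49, adjusted p = 9.04e-05). Psme2 fell less, from a median of 11.4 to 7.32 (0.808 to 11.1), by 0.85 on the log2 scale (SE 0.27, adjusted p = 0.00588), and Psme1 was at 1.616 to 8.04 (median 2.40), a change that did not pass the test (-0.53, SE 0.43, adjusted p = 0.297). Psmb9 had 9 counts in these libraries and was not tested.

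In the alpha ring, Psma2 had 105 counts in the T4 controls (0 to 3.29, median 2.20) and 0 in all 6 high-dose libraries, at least 6.02-fold lower when set at the floor of 3 counts over the group, a level of 0.312 (counting error only, adjusted p = 6.27e-05). Psma6 fell from 1.15 to 5.10 (median 3.41) to 0 to 2.42 (median 0.718), by a log2 change of -2.99 (SE 0.66, adjusted p = 9.73e-05). Psma7 fell from 1.499 to 4.58 (median 2.20) to 0 to 1.45 (median 0.834), without overlap, by -1.97 (SE 0.60, adjusted p = 0.00437). Psma3 went from 1.33 to 3.75 (median 2.46) to 0 to 2.71 (median 0.762), by -1.43 (SE 0.53, adjusted p = 0.0173).

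Psma4 went against its ring. It stood at 2.04 to 4.498 (median 3.41) in controls and at 1.00 to 12.2 (median 4.74) at high doses, a log2 change of 0.77 (SE 0.32, adjusted p = 0.0359) with 5 of 6 libraries above the control mean. That call rested on 1 library: without replicate 1 at 2500 nM the change was -0.30, and the call was also lost without each of the 4 libraries at 625 and 10000 nM, under DESeq2 (0.59, adjusted p = 0.0967) and under 6 other alternatives.

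In the beta ring, Psmb6, which carries the caspase-like activity, fell from 0.463 to 4.92 (median 2.43) to 0 to 2.01 (median 0.823), a log2 change of -2.70 (SE 0.76, adjusted p = 0.00202). Psmb4, a structural subunit, fell from 0.866 to 2.15 (median 1.67) to 0 to 1.45 (median 0.332), by -2.50 (SE 0.91, adjusted p = 0.0169). Both groups overlapped for each gene. Psmb5, the chymotrypsin-like subunit, had 49 counts in the T4 controls and 4 at high doses (0 to 0.969, median 0.215), too few to pass the filter, and without it gave -2.25 (adjusted p = 0.191). Psmb7, the trypsin-like subunit, stood at 0.235 to 2.08 (median 0.979) in controls and at 1.00 to 7.30 (median 1.65) at high doses, and without the filter gave 0.54 (adjusted p = 0.611). Psmb7 shares its 3′ end with Nek6 on the opposite strand, and Psmb5, Psmb6 and Psmb7 have pseudogenes.

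**Figure D4:**
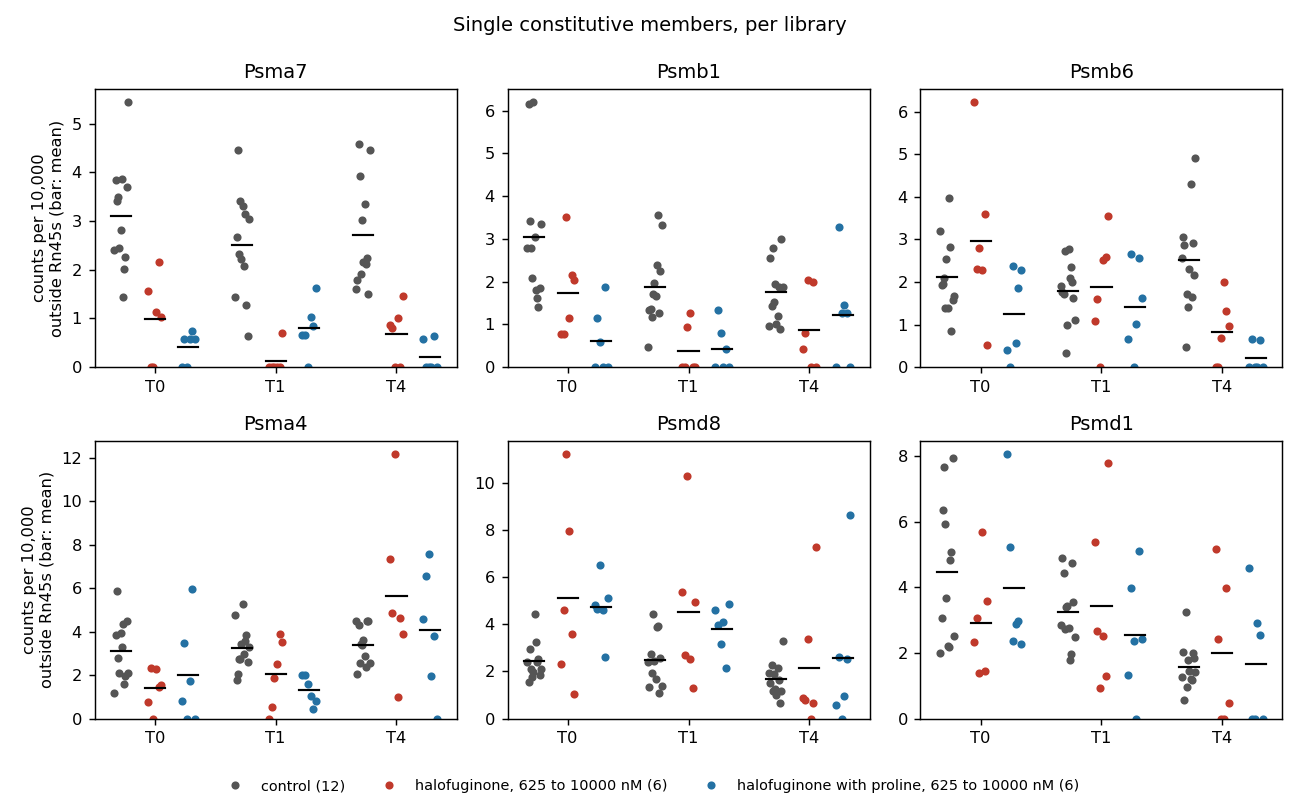
Levels of named constitutive subunits per 10000 counts outside Rn45s (vertical axes) at each time in controls and at 625 to 10000 nM without and with proline, with 1 point per library. At T4 Psma4 spreads from 1.00 to 12.2 in the 6 libraries with halofuginone alone.

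Of the cap and activator subunits of the constitutive set, 5 were tested at T4 under the high doses, none of them a Psmc ATPase, and these were not called by edgeR. Of all 1315 genes tested there, 54.6% were called. Psmd7, a lid subunit, ran from 0 to 2.42 (median 0.736) against 0.463 to 4.33 (median 2.10) in controls, a change of -1.393 (SE 0.66, adjusted p = 0.0663). Psmd1 (-1.18, adjusted p = 0.320), Psmd8 (0.23, adjusted p = 0.735), Psmd14, the deubiquitinase of the lid (0.18, adjusted p = 0.829), and Psme4, the PA200 activator (0.23, adjusted p = 0.804), had higher adjusted p-values. Without the filter, edgeR called Psmd11 (adjusted p = 0.000267), Psmc6 (adjusted p = 0.0111), Psmd7 (-1.83, adjusted p = 0.0275) and Psmc1 (adjusted p = 0.0460) lower. The other cap subunits were not called without it. The share of all genes called without the filter is not reported here, and these 4 members had few counts.

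Without the dose of 10000 nM, the calls of Psma3 (adjusted p = 0.114), Psmb4 (adjusted p = 0.262), Psmb6 (adjusted p = 0.136) and Psme2 (adjusted p = 0.169) were lost, as were those of Psmb4 without replicate 1 at 10000 or at 2500 nM (adjusted p up to 0.0608) and of Psma3 without replicate 2 at 2500 nM (adjusted p = 0.0604). Those of Psmb8, Psmb10, Psma2 and Psma6 were kept under every alternative run.

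With proline added to the high doses, core and immune subunits were again lower at T4. Of 16 members tested, 9 were called against 52% of the genes, all 9 lower (background 33.5%) and 0 higher (background 18.6%), with a median of -1.21 over the tested members and -0.20 over all genes. Psmb8 stood at 0 to 1.46 (median 0.90), clear of the controls, by -2.19 (SE 0.47, adjusted p = 5.81e-05), and Psmb10 at 0.486 to 6.90 (median 0.90), by -1.72 (SE 0.46, adjusted p = 0.00132). Psme2 was at 3.45 to 10.7 (median 5.81), by -0.77 (SE 0.27, adjusted p = 0.0134). Psme1 ranged from 0 to 13.96 (median 3.26), and its change did not pass (0.28, SE 0.39, adjusted p = 0.566).

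Among core subunits with proline, Psma6 (0 to 2.86, median 0.633) fell by 2.02 on the log2 scale (adjusted p = 0.000962) and Psma3 (0 to 1.72, median 0.95) by 1.65 (adjusted p = 0.0119). Others were down to 1 or 2 counts, for which the ratio of pooled levels is given with its 95% counting interval. Psma7 had 2 counts against 148 in controls, a ratio of 0.0832 (0.0100 to 0.306, adjusted p = 8.13e-05). Psmb6 had 2 against 137, a ratio of 0.0898 (0.0110 to 0.331, adjusted p = 0.000111).
Psma2 had 1 against 105, a ratio of 0.0586 (0.0015 to 0.334, adjusted p = 0.000378), and Psmb4 2 against 84, a ratio of 0.147 (0.0170 to 0.546, adjusted p = 0.00529). Psmb5 had 1 count against 49. Psma4 (0 to 7.57, median 4.19) and Psmd7 (0 to 6.56, median 2.60) were not called, with changes of 0.23 and 0.44.
Without the dose of 10000 nM the calls of Psma3 (adjusted p = 0.148) and Psme2 (adjusted p = 0.0532) were lost.

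**Figure D5:**
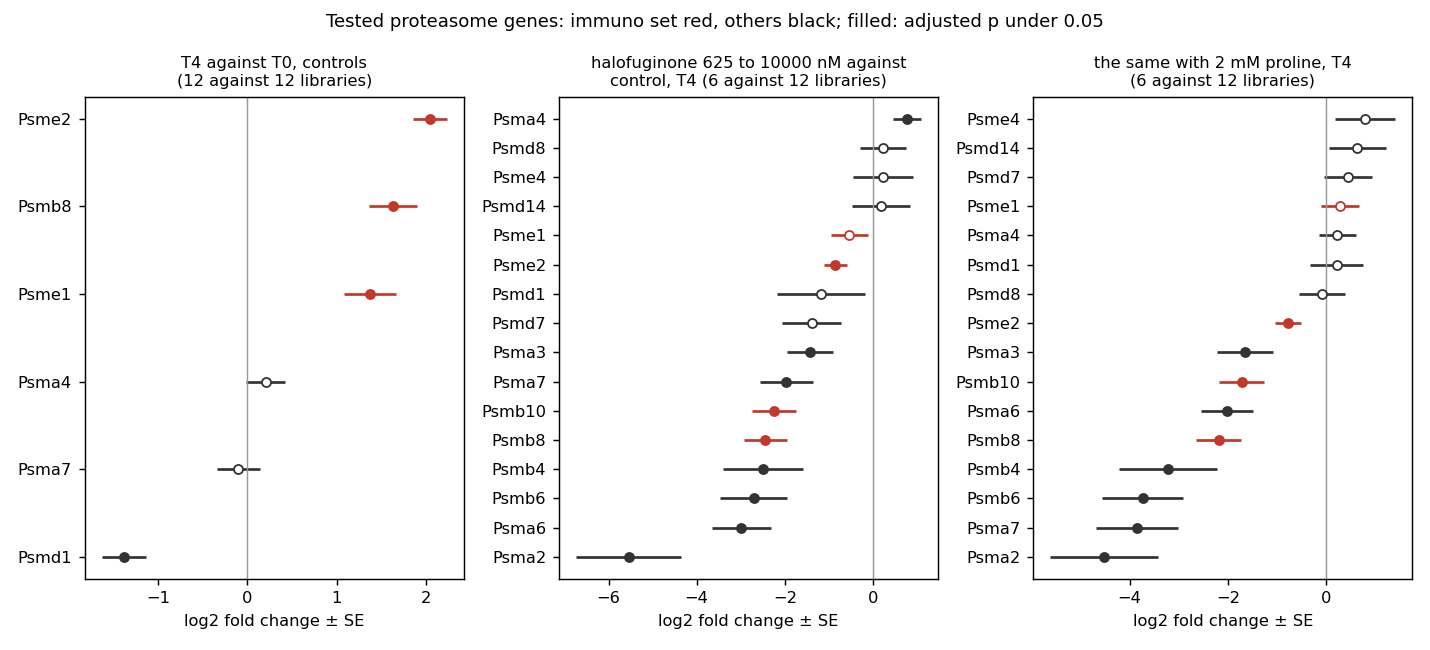
Log2 change from control at T4 (horizontal axis) for members that passed the filter, at 625 to 10000 nM without and with proline, with bars of 1 SE. Genes with 3 or fewer treated counts have fitted values that depend on the model's prior and are no measure of size.

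With and without proline were also compared directly at the high doses. At T4, 0 of 16 members passed edgeR's test (0% of 1315 genes did, 1 member had an unadjusted p under 0.05, and DESeq2 called 0). The difference for Psmb8 was 0.25 (SE 0.72), for Psmb10 0.53 (SE 0.74), for Psme2 0.08 (SE 0.35) and for Psmd7 1.83 (SE 0.75, adjusted p = 0.303). These errors leave room for differences of over 1 on the log2 scale for Psmb8, Psmb10 and Psmd7, so a lack of calls does not show that the arms were alike. At T0, 0 of 8 members were called (0.177% of genes, 2 members unadjusted, DESeq2 0), and at T1 0 of 6 (0% of genes, 0 members unadjusted, DESeq2 0).

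The middle doses, 39 and 156 nM, had 4 libraries in each arm. At T4, 6 of 16 members were called under halofuginone alone against 40.5% of the genes, all 6 lower (background 25.9%; higher 14.5%). Psme2 was at 3.66 and 3.74 at 39 nM and at 0 and 2.37 at 156 nM, clear of the controls, by -2.21 (SE 0.42, adjusted p = 1.40e-05). Psmb8 was at 1.37 and 1.60 and at 0 and 0.79, also clear of them, by -2.37 (SE 0.61, adjusted p = 0.00112). Psmb10 spread from 0.458 to 4.81 at 39 nM and from 0 to 2.37 at 156 nM and fell by 1.255 (SE 0.53, adjusted p = 0.0484), a call lost without any of 7 libraries (replicate 1 at either dose and control replicates 2, 3, 8, 9 and 10, adjusted p 0.0541 to 0.230).

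Of the 12 constitutive members tested, 3 were called lower, near the share of all genes called lower (25.9%). Psmb6 was at 0.916 and 1.07 at 39 nM and at 0 in both libraries at 156 nM, by -3.57 (SE 1.12, adjusted p = 0.00812), a call lost without replicate 2 at 156 nM (adjusted p = 0.0655). Psma7 was at 0 and 0.458 and at 0 and 3.26, by -2.07 (SE 0.75, adjusted p = 0.0222), lost without replicate 2 at either dose (adjusted p = 0.137 at 156 nM and 0.0925 at 39 nM). Psma2 had 1 count in the 4 libraries, a ratio of 0.0852 to controls (0.0021 to 0.485, adjusted p = 0.00743).

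With proline at the middle doses 4 of 16 members were called against 16.7% of the genes, all 4 lower (background 11.2%, with 5.55% higher). In an edgeR fit at 156 nM alone, added after the data were seen, Psmb8, Psmb10 and Psma7 were called lower. Psmd7 was not called there (adjusted p = 0.0601), and Psmd14 was called higher (2.04, adjusted p = 0.0349). Psmb8 was at 4.49 and 5.35 at 39 nM, inside the control range, and at 0 and 0.665 at 156 nM. Psmb10 was at 3.27 and 6.21 at 39 nM and at 0 in both libraries at 156 nM, that is 29 counts and 0 counts. Over both doses Psmb8 fell by 1.60 (SE 0.59, adjusted p = 0.0456) and Psmb10 by 3.33 (SE 0.99, adjusted p = 0.0133), but at 39 nM alone they gave 0.19 (adjusted p = 0.903) and 0.11 (adjusted p = 0.962), and 0 members were called.
Psma7 was at 1.04 and 1.78 at 39 nM and at 0 at 156 nM (-3.44, SE 1.07, adjusted p = 0.0181), and Psmd7 at 0 and 1.38 and at 0 (-3.74, SE 1.2, adjusted p = 0.0225). Psme2 stood at 5.98 and 10.8 at 156 nM and at 5.94 and 10.7 at 39 nM, and was not called. Leaving out a treated library ended calls here: those of Psmb8, Psmb10, Psma7 and Psmd7 without either replicate at 156 nM (adjusted p 0.0636 to 0.197), those of Psmb8, Psmb10 and Psmd7 without replicate 1 at 39 nM (adjusted p 0.0511 to 0.102), and that of Psmb8 also without replicate 2 at 39 nM (adjusted p = 0.0967) or control replicate 4, 6, 7, 8 or 12.

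Between the arms at the middle doses, Psme2 alone among 16 members was called at T4, against 4.11% of the genes. It was higher with proline by 1.81 on the log2 scale (SE 0.51, adjusted p = 0.0279), with 4 of 4 libraries above the mean without proline and no overlap (5.94 to 10.8 against 0 to 3.74). The call was fragile: it was lost in 5 of 8 fits that left out a treated library (adjusted p up to 0.142; replicate 1 at 156 nM in either arm, both replicates at 39 nM without proline and replicate 2 at 39 nM with it), without the libraries under 30000 counts (1.27, adjusted p = 0.289), and at each dose alone (1.09, adjusted p = 0.191 at 39 nM, and 2.53, adjusted p = 0.304 at 156 nM). Psma2 had 24 counts with proline and 1 without, and was not called over both doses (adjusted p = 0.0902). At 39 nM alone, a fit added after the data were seen, it was at 3.11 and 3.56 with proline and at 0 in both libraries without it (adjusted p = 0.0162).

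Some members were called before T4 as well. At the high doses the shares called lay under those of all genes without proline and a little above them with it. Only 8 members were tested at T0 and 6 at T1. At T0, under the high doses of halofuginone alone, 1 of 8 members was called, against 38.3% of 1130 genes: Psma7 fell from 1.45 to 5.44 (median 3.12) to 0 to 2.16 (median 1.08), by 1.65 on the log2 scale (SE 0.57, adjusted p = 0.0152). With proline 4 of 8 were called, against 43.4%, 3 lower (background 24.4%) and 1 higher (background 18.9%). Psma7 was at 0 to 0.746 (median 0.573), clear of the controls, by -2.86 (SE 0.63, adjusted p = 0.000119).
Psmb1, a structural beta subunit, fell from 1.41 to 6.19 (median 2.79) to 0 to 1.86 (median 0.296), by -2.32 (SE 0.60, adjusted p = 0.000999), and Psma3 from 0.489 to 2.51 (median 1.58) to 0 to 1.74 (median 0.403), by -2.09 (SE 0.81, adjusted p = 0.0313). Psmd8 rose, from 1.54 to 4.42 (median 2.24) to 2.61 to 6.51 (median 4.74), by 0.96 (SE 0.32, adjusted p = 0.00961), with 6 of 6 libraries above the control mean.
Leaving out 1 library ended the call of Psma7 under halofuginone alone (replicate 2 at 10000 nM, adjusted p = 0.0705, or replicate 1 at 2500 nM, adjusted p = 0.0554). With proline it ended that of Psma3 (replicate 1 at 10000 nM, 2 at 2500 nM or either at 625 nM, adjusted p 0.0675 to 0.109) and that of Psmd8 (replicate 1 at 2500 nM, adjusted p = 0.0661, or 2 at 625 nM, adjusted p = 0.0937).

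The summed levels at T0 were lower too. The immunoproteasome set stood at 2.16 to 5.12 (median 3.55) under halofuginone and at 2.28 to 6.95 (median 3.64) with proline, against 4.35 to 10.4 in controls, ratios of 0.513 and 0.615. The constitutive ratios were 0.784 and 0.796. Neutrophil markers, of the same list as above, summed at T0 to 3.91 to 9.27 in controls, 0 to 3.11 under halofuginone and 0 to 2.32 with proline.

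At T1 the high doses of halofuginone gave 2 called of 6 tested, against 34.3% of 1066 genes. Psma7 had 1 count against 94 in controls, a ratio of 0.0600 (0.0015 to 0.342, adjusted p = 0.000442), and Psmb1 had 2 against 73, a ratio of 0.154 (0.0180 to 0.578, adjusted p = 0.00554). With proline 3 of 6 were called, against 38.7%: Psma7 (0 to 1.61, median 0.759) fell by 1.64 (adjusted p = 0.0286), Psmb1 (0 to 1.33, median 0.213) by 1.88 (adjusted p = 0.0293) and Psma4 (0.426 to 1.99, median 1.30, against 1.78 to 5.25 in controls) by 1.35 on the log2 scale (adjusted p = 0.0242). The immunoproteasome sum was 0 to 7.80 (median 1.17) and 1.32 to 5.98 (median 3.55), ratios of 0.372 and 0.514 to controls, while the constitutive ratios were 0.813 and 0.716. The value of 0.372 came from few counts: it was 0.228 without replicate 2 at 625 nM and 0.888 without the libraries under 30000 counts. With proline, the calls of Psma4 and Psma7 were lost without replicate 1 at 625 nM (adjusted p = 0.0761 and 0.0607), that of Psma7 also without replicate 1 at 2500 nM (adjusted p = 0.103), and that of Psmb1 without replicate 1 at 10000 nM or 2 at 2500 or 625 nM (adjusted p 0.0563 to 0.0767).

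The middle doses before T4 gave few calls. At T0, Psma7 (0 to 1.92 in 4 libraries, -2.15, adjusted p = 0.0110) and Psmb1 (0 to 2.50, -1.84, adjusted p = 0.0210) fell under halofuginone alone (2 of 8, against 28.4%), and Psmd8 rose with proline (2.76 to 7.76, 1.06, adjusted p = 0.0208; 1 of 8, against 13.2%). At T1, under halofuginone alone, Psmd8 rose (2.75 to 7.99 against 1.09 to 4.43, a log2 change of 1.254, adjusted p = 0.0117) and Psma7 fell (0 to 2.99, -3.04, adjusted p = 0.0140), 2 of 6 against 29.2%.
With proline at T1, 0 of 6 were called by edgeR, against 12.7% (2 unadjusted, DESeq2 0). Between the arms 0 of 8 were called at T0, against 2.12% (2 unadjusted, DESeq2 0), and 0 of 6 at T1, against 1.22% (1 unadjusted, DESeq2 0). Each call at the middle doses was lost without some treated library. At T0 these were replicate 2 at 156 nM or 1 at 39 nM for Psma7 (adjusted p = 0.125 and 0.0511), either at 156 nM or 2 at 39 nM for Psmb1 (0.0625 to 0.166), and 2 at 156 nM or either at 39 nM for Psmd8 with proline (0.0668 to 0.558). At T1 they were replicate 1 at 156 nM or 2 at 39 nM for Psmd8 (adjusted p = 0.392 and 0.280) and either at 156 nM or 1 at 39 nM for Psma7 (0.0694 to 0.0766).

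Whether the change under the high doses differed between times was tested on the difference itself. For halofuginone alone, the change at T4 less that at T0 was called for 2 of 16 members, against 16.1% of 1640 genes: Psmb6 (-3.34, SE 0.86, adjusted p = 0.00248) and Psma4 (1.59, SE 0.54, adjusted p = 0.0287). At T0 Psmb6 stood at 0.512 to 6.22 (median 2.56) under halofuginone against 0.845 to 3.99 (median 1.94) in controls, and Psma4 at 0 to 2.31 (median 1.49) against 1.199 to 5.86 (median 3.05), so the median of each lay on the other side of its controls than at T4. With proline 1 of 15 was called, against 13.6% of 1655 genes: Psmb4 (-3.36, SE 1.08, adjusted p = 0.0233), which stood at 0 to 4.03 (median 1.46) at T0 against 0.977 to 3.77 (median 1.83) in controls.
The call of Psmb6 was lost without replicate 1 at 625 nM of T0 (adjusted p = 0.0977), that of Psma4 without each of 8 treated libraries (adjusted p 0.0614 to 0.774, the change being 0.53 without replicate 1 at 2500 nM of T4), and that of Psmb4 without each of 5 (adjusted p 0.0560 to 1.00, the change being -1.49 without replicate 1 at 10000 nM of T0). Without the dose of 10000 nM the difference was -1.42 for Psmb6 (adjusted p = 0.263), 1.58 for Psma4 (adjusted p = 0.0855) and -3.74 for Psmb4 (adjusted p = 0.0645), while Psmb6 was then called with proline (-4.18, adjusted p = 0.0131). With no filter the calls of Psma4 (adjusted p = 0.207) and Psmb4 (adjusted p = 0.122) were lost, and that of Psmb4 also under median-of-ratios scaling (adjusted p = 0.0597) and with counts outside Rn45s as library size (adjusted p = 0.0692).
For T1 less T0, 0 members were called in either arm by edgeR (background 4.21% and 4.17%, 3 and 0 members unadjusted, DESeq2 0 and 0). None of the interactions of the immunoproteasome genes was called: at T4 under halofuginone alone they were -0.97 for Psmb8 (SE 1.1605), -1.83 for Psmb10 (SE 1.17), -0.12 for Psme2 (SE 0.73) and 0.14 for Psme1 (SE 0.64). A difference between the times was therefore not detectable for this set at this depth.

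Around the proteasome at T4, the high doses lowered 5 of 12 antigen processing genes tested and raised 1, beside 35.5% of all genes lower and 19.1% higher: B2m (-2.81), Irf8 (-3.87), the MHC class I heavy chains H2-D1 (-1.27) and H2-K1 (-0.95) and the peptide transporter Tap1 (-1.17) fell, and Calr rose by 0.56. With proline 6 fell, the same 5 and Tapbp (-0.93), and Calr rose by 0.76, beside 33.5% of all genes lower and 18.6% higher. Among 8 ubiquitin genes tested, Rps27a fell by 0.62 on the log2 scale under halofuginone alone and by 0.68 with proline. All 3 partners tested fell under halofuginone alone, Nfe2l2 by 2.70, Shfm1 by 1.79 and the segregase Vcp by 2.66, and with proline Shfm1 fell by 1.53 and Vcp by 1.44. Nfe2l2 had the opposite direction at T0, where it rose by 1.53 under halofuginone alone (adjusted p = 4.50e-06) and by 1.67 with proline (adjusted p = 1.20e-07), and it rose by 0.71 with proline at T1 (adjusted p = 0.0307). Between the arms at the high doses, 0 genes of these lists were called.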

How the data were processed

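RNA of 120 libraries was measured by 3′ digital gene expression (modified SCRB-Seq), per the labels' protocols. The authors deposited unnormalized counts, 23481 gene symbols by 120 libraries. BWA and mm10 are named in the submitters' processing notes. How reads were counted (program, annotation, strand, molecular identifiers) is not given in the sources used here. Every row had a gene name, 0 columns were left unmapped and 0 of 240 replicate pairs were identical. Gene positions came from GENCODE on GRCm38.

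Levels are counts per 10000 outside Rn45s. Tests used R 4.3.3 and edgeR 4.0.16 (quasi-likelihood, TMM, filterByExpr with a minimum count of 10, all genes of a fit, two-sided, Benjamini-Hochberg, threshold 0.05). The SE is the absolute log2 change divided by the square root of F, not a fitted error. Of 24 comparisons, controls were compared over times in 1 fit of 36 libraries, treated groups in 1 fit of 40 per time, and changes between times in fits of 54. Of the members, 20 were tested in some comparison and 15 called. Summed levels got no test. Intervals are exact and cover counting error only.

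The members, lists and comparisons were chosen with earlier results of these data known. Named genes were the immunoproteasome set, Psmb5, Psmb6, Psmb7, every member called and the 8 other members with the most counts. Cap members called without the filter at T4 under the high doses were also named. Alternatives were median-of-ratios scaling, DESeq2 1.42.0, other denominators, no filter, a replicate block and leaving out libraries or a dose, with the single middle doses added after the data were seen. The fits were tested on simulated data. Some genes of the lists are not reported here by name.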

Additional observations from a re-analysis of the deposited data

Results flagged for a closer look

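For 3 members the change under 625 to 10000 nM differed between T4 and T0 by a test of the difference itself. Psmb6, a catalytic subunit of the core, had a difference of -3.34 on the log2 scale under halofuginone alone (adjusted p = 0.00248 by edgeR). Psma4, an alpha subunit, had one of 1.59 in the same arm (adjusted p = 0.0287), and Psmb4, a structural beta subunit, one of -3.36 with proline (adjusted p = 0.0233). Without the dose of 10000 nM all 3 calls were lost, with a difference of -1.42 for Psmb6 (adjusted p = 0.263), and those of Psma4 and Psmb4 were also lost with no filter on low counts. Each labelled group held 2 or 12 libraries, so no check for a single outlying library was made within a group. The groups pooled over doses were examined by leaving out 1 library at a time.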

How the results depend on the processing

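Member counts under alternatives other than leaving out 1 library stayed within 1.5 times of the reported count in 153 cases and moved further in 46. Ratios of summed levels moved by over 1 SD in 9 of 60 cases. With all counts as the denominator the constitutive ratios were 0.895 and 1.05 for T1 and T4 over T0, 0.567, 0.536 and 0.406 for high doses at T0, T1 and T4, and 0.482 and 0.434 with proline at T1 and T4, and the immunoproteasome ratio of T4 over T0 was 4.07. Without the libraries under 30000 counts the immunoproteasome ratio for high doses at T1 was 0.888, and the middle doses gave 5 calls at T1, 1 with proline at T4 and 0 between the arms at T4. DESeq2 gave 2 calls for high doses at T0, 0 for the T4 less T0 change with proline and 1 for middle doses with proline at T4, where it left 8 of 16 members without an adjusted p. Median-of-ratios scaling gave 2 at T0, 0 for that change and 1 for middle doses with proline at T1. Counts outside Rn45s as library size gave 1 for high doses at T1 and 0 for that change, and dropping 6 abundant RNAs gave 1 at T1. For high doses at T0, calls over all genes were 418 of 1130 with DESeq2 and 424 with median-of-ratios scaling, against 433 as reported. Under alternatives, the shares of all genes for most other comparisons are not reported here.

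With no filter the calls were 8 for T4 over T0 in controls, 2 and 6 for high doses at T0 and T1, 8 and 6 with proline, 1 for the T4 less T0 change and 0 with proline, 1 for middle doses at T0, 0 with proline and 0 between the arms at T4. Without 10000 nM they were 0 for high doses at T0, 5 at T4, 1 for the T4 less T0 change and 1 with proline at T1. At 156 nM alone they were 1, 1 and 3 for T0, T1 and T4, 4 with proline at T0 and 0 between the arms at T4. At 39 nM alone they were 0, 0 and 3, and 0 and 0 with proline at T0 and T4, where Psmb10 (0.11) and Psmb8 (0.19) changed sign. Over all genes, no filter gave 2215 calls of 12496 for T4 over T0 in controls, against 540 of 708 as reported. For high doses at T0 it gave 561 of 12584, against 433 of 1130.

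Same-numbered libraries were not taken as paired: the numbers came from the titles in the labels, control pairs correlated at -0.04 to 0.34 (over 0.1 in 2, 6 and 7 of 12), and 3, 5 and 5 of 12 matched best with their own number, a hint from the data and not from the design. With a replicate block the calls were 0, 1 and 6 for high doses at T0, T1 and T4 (Psma4, Psma7, Psmb4 and Psme2 not called at T4, adjusted p 0.288 to 0.317), 2 and 0 with proline at T0 and T1, 1, 0 and 2 for middle doses, and 0 and 0 with proline at T0 and T4. For high doses with proline at T4, Psmb10, Psmb4 and Psme2 were not called under it (adjusted p 0.0631 to 0.403). Of 52 calls of single genes over all comparisons, 26 were lost under the block. Over all genes, the block gave 236 calls of 1130 for high doses at T0, against 433 without it. For T4 over T0 in controls it gave 549 of 708, against 540. Treated libraries carried only the numbers 1 and 2, so in the fits per time each control numbered 3 to 12 had a block term of its own. Those controls then added nothing to a comparison of treated groups with control, which rested on 2 controls. The part of this in the changed calls was not tested.

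Leaving out 1 library gave 3 to 6 calls for T4 over T0 in controls, 0 to 3, 1 to 4 and 10 to 12 for high doses at T0, T1 and T4, and 3 to 5, 1 to 3 and 9 to 11 with proline. It gave 1 to 2 and 0 to 1 for the T4 less T0 changes, 0 to 2, 0 to 2 and 4 to 7 for middle doses, 0 to 2 and 0 to 5 with proline at T0 and T4, and 0 to 1 between the arms. The immunoproteasome ratio for high doses at T1 ran from 0.228 to 0.447, and Psma4 at T4 from -0.30 to 0.96. Few counts per member limit all of this.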
